A study of Mus musculus with 4 samples.

Results

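The SLC25 family of mitochondrial carriers was measured in mouse liver as the set of array genes named Slc25a plus a number, together with the uncoupling proteins Ucp1, Ucp2 and Ucp3, leaving out 2 members that are not analysed here. Of 48 such genes with a probe, 45 were well above background on at least 1 array and form the set described here, out of 22648 such genes among 30026 genes with a probe. Slc25a31, Slc25a53 and Slc25a54 were not well above background on any array and were left out. Of the 45, 41 were well above background on all 4 arrays, and Slc25a2, Slc25a18, Slc25a41 and Slc25a43 on 1 to 3 of them. The scanner's well-above-background flag is set per spot from the spot's own brightness and local background.

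The carriers are proteins of the inner mitochondrial membrane, apart from a few in peroxisomes or in the outer membrane, and each moves a small set of solutes between cytosol and matrix, often by exchange. They supply the matrix with ADP, phosphate, acylcarnitines, cofactors and amino acids and hand ATP, citrate and aspartate back to the cytosol. In liver they link mitochondria to the urea cycle, gluconeogenesis, lipogenesis and one-carbon metabolism, and the uncoupling proteins of the same family let protons or other ions leak across the membrane.

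RNA came from the liver of C57BL/6N mice, either wild type (WT, Pnpla7+/+) or knockout (KO, Pnpla7-/-), at 3 or 6 weeks of age, with 1 one-colour Agilent array for each of the 4 groups, all on 1 slide. PNPLA7 is a lysophospholipase, and the series' title places it, with PNPLA8, in the supply of choline from phosphatidylcholine for the methionine cycle. Each array carried RNA pooled from 5 livers, so it gives a group mean with no spread between animals. Which part of Pnpla7 was deleted is not stated in the labels.

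Every value below is a signal divided by the 75th percentile of its own array's non-control spots, and every ratio is a log2 ratio of such signals, so that 1 stands for 2-fold. With 1 array a group no comparison of 2 arrays has a replicate check, and a ratio describes those 2 arrays. Between 28714 and 30697 of 43020 spots were well above background per array and none was saturated. Probes printed in 10 spots had a median spot SD of 0.0647 to 0.100 on the log2 scale, which covers the array surface and scanner only and is not a spread between animals. Pnpla7 itself read 7.54 in WT and 6.70 in KO at 3 weeks and 9.65 and 4.42 at 6 weeks, log2 ratios of -0.17 and -1.13. Its probe may lie outside the deleted part, so this checks no label. All 10 hepatocyte markers, Alb and Cps1 among them, were well above background on every array and none differed 2-fold between KO and WT at either age. Their median log2 ratio of KO over WT was -0.00 at 3 weeks and 0.39 at 6 weeks, where 2 of 10 were at least 1.5-fold higher in KO, Tat (0.96) the most. The part of this shift in the carriers' 6-week ratios was not tested.

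The probe sequences of Slc25a4 and Ucp1 are shown because these genes had the 2 carrier differences that were read beside another tissue's markers below. Both are in lower case, 5′ to 3′ in the sense of the transcript, as given in the scanner files, which place them on mouse build mm9. The Slc25a4 probe lies at chr8:47292828-47292887 on the minus strand and the Ucp1 probe at chr8:85821788-85821847 on the plus strand. The exon was not looked up because no mm9 annotation was used here, and 1 of the 3 forward frames of each probe is free of stop codons.
Slc25a4 probe: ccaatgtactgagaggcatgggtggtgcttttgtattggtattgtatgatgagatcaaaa
Ucp1 probe: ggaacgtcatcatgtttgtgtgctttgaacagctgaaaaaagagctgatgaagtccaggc

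Windows around transcription starts, from 250 bases before to 50 bases after each start, came from RefSeq on build GRCm38.p6 and matched 35 of the 45 members, with 43 windows in all. The 4 windows printed belong to the adenine nucleotide carrier Slc25a4, the choline carrier Slc25a48, the ATP-Mg/phosphate carrier Slc25a25 and the uncoupling protein relative Slc25a30. All 4 carriers were past 1.5-fold between KO and WT at 6 weeks, and Slc25a2, Slc25a12, Slc25a18 and Slc25a29, also past it, are not printed. Capitals mark the CCAAT box, the GC box (letters GGGCGG) and the cAMP response element (letters TGACGTCA), wherever a script found them on either strand. A CCAAT box on the other strand reads ATTGG, and a GC box there reads CCGCCC. For Slc25a25 the window shown is the 1 of 3 that holds the cAMP response element.
Slc25a4, chr8:46211013-46211312, minus strand: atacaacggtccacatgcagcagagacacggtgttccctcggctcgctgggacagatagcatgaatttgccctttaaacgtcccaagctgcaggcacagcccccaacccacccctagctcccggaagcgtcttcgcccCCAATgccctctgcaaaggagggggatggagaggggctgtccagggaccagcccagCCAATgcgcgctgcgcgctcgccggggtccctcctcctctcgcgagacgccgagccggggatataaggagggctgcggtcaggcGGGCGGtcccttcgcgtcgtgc
Slc25a48, chr13:56438105-56438404, plus strand: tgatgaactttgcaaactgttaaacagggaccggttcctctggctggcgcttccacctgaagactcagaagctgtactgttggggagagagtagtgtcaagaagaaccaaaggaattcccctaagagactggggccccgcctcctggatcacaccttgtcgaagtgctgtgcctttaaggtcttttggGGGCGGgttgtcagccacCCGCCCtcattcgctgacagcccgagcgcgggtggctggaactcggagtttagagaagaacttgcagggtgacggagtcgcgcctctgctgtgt
Slc25a25, chr2:32424017-32424316, minus strand: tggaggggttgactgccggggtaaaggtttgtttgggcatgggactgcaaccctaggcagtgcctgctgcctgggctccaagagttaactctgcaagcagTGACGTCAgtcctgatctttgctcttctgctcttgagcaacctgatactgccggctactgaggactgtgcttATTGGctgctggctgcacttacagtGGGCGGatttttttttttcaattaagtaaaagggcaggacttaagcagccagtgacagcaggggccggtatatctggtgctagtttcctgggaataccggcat
Slc25a30, chr14:75786988-75787287, minus strand: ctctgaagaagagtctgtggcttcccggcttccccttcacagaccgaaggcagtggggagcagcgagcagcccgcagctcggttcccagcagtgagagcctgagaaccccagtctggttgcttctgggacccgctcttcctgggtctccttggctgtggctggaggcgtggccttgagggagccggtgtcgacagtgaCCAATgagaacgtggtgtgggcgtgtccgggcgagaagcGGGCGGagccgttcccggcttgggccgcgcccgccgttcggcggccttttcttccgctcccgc

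GGGCGG, the core of the GC box, stood in 34 of the 43 carrier windows (79.1%), against 35.7% of all 32851 RefSeq windows of the same 300 bases. CCAAT stood in 21 of 43 (48.8%), against 37.4%. CACGTG, the E-box, stood in 6 of 43 (14.0%), against 7.15%, in the genes Slc25a1, Slc25a13, Slc25a14, Slc25a33 and Slc25a36. TATAAA stood in 2 of 43 (4.65%), against 13.6%, in Slc25a18 and Slc25a21. TGACGTCA stood in 2 of 43 (4.65%), against 1.79%, in Slc25a25 and Slc25a36. All 5 motifs were searched on both strands, none contains another, a gene can have several windows, and a match is a description of the sequence.

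At 3 weeks 1 of the 45 carriers differed at least 2-fold between KO and WT. None was at least 2-fold higher, where 2.86% of 21758 genes were, and Ucp1 alone was at least 2-fold lower, where 2.9% of genes were. The median carrier ratio was 0.03, against -0.00 over all genes. At a smaller threshold of 1.5-fold, 3 carriers were higher (Slc25a4, Slc25a27 and Slc25a41; 5.05% of all genes) and 2 lower (Ucp1 and Slc25a2; 5.48%).

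At 6 weeks 2 of 44 carriers, Slc25a4 and Slc25a48, were at least 2-fold higher in KO, where 6.11% of 21386 genes were. Slc25a2 and Slc25a30 were at least 2-fold lower, where 4.54% of genes were. The median carrier ratio was 0.02, against 0.05 over all genes. At 1.5-fold, 5 carriers were higher, now with Slc25a12, Slc25a18 and Slc25a29 (12.0% of all genes), and 3 lower, now with Slc25a25 (10.4%). The members' shares at both ages lay near those of all genes.

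**Figure D1:**
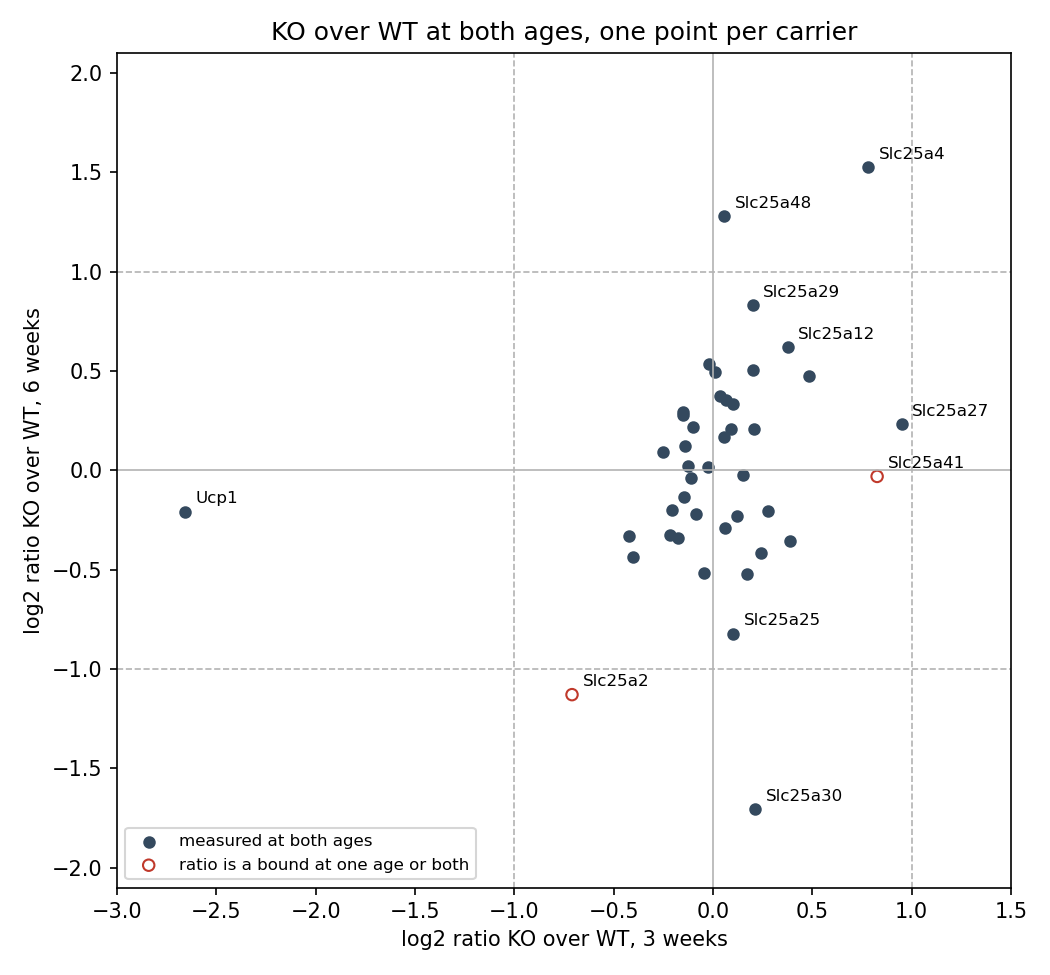
Each point is 1 carrier, placed by its log2 ratio of KO over WT at 3 weeks (horizontal axis) and at 6 weeks (vertical axis), 1 array per group, with 2-fold marked by dashed lines; open points are ratios with a bound at 1 age or both, and Slc25a18 and Slc25a43, which have no ratio at 1 of the ages, are not drawn. Most carriers lie near 0 on both axes, Slc25a4 is the point high on both (0.78 and 1.52), Ucp1 is far left at 3 weeks (-2.66), and Slc25a30 is lowest at 6 weeks (-1.71).

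Between ages, 1 of 44 carriers was at least 2-fold higher at 6 than at 3 weeks in WT (Slc25a30; 3.64% of 21169 genes) and 1 was lower (Slc25a4; 5.46%). In KO, 2 of 45 were higher (Ucp1 and Slc25a18; 6.02% of 21971 genes) and none was lower (6.26%). At 1.5-fold, 2 were higher (8.19% of genes) and 5 lower (10.7%) in WT, with Ucp2, Ucp3 and Slc25a12 beside Slc25a4 among the lower. In KO 4 were higher (13.3%) and 6 lower (13.0%), with Slc25a13, Slc25a25, Slc25a33 and Ucp2 among the lower. The age ratios use the same 4 arrays as the KO over WT ratios, so a single array that reads high or low enters both.

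Across the 4 arrays, limma with terms for age and genotype called none of the 45 carriers for genotype or for age, and none of the 22648 genes tested, at a Benjamini-Hochberg adjusted p under 0.05 (0.0% of genes for both terms). The fit has 1 residual degree of freedom. At an unadjusted p under 0.05 it listed 2 carriers for genotype, of 1007 genes, and 3 for age, of 2308 genes. The lowest adjusted p of a carrier in limma was 0.914 for genotype and 0.477 for age. The labels do not say whether the livers of a pool came from separate litters. The limma p-values rest on how far the KO over WT ratio differed between the ages, drawn toward a value shared by all genes. They measure no spread between animals. Limma took every signal as read, also where a probe was dim, such as Slc25a2 in KO at 6 weeks. Slc25a2 was 1 of the 2 carriers listed for genotype.

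**Figure D2:**
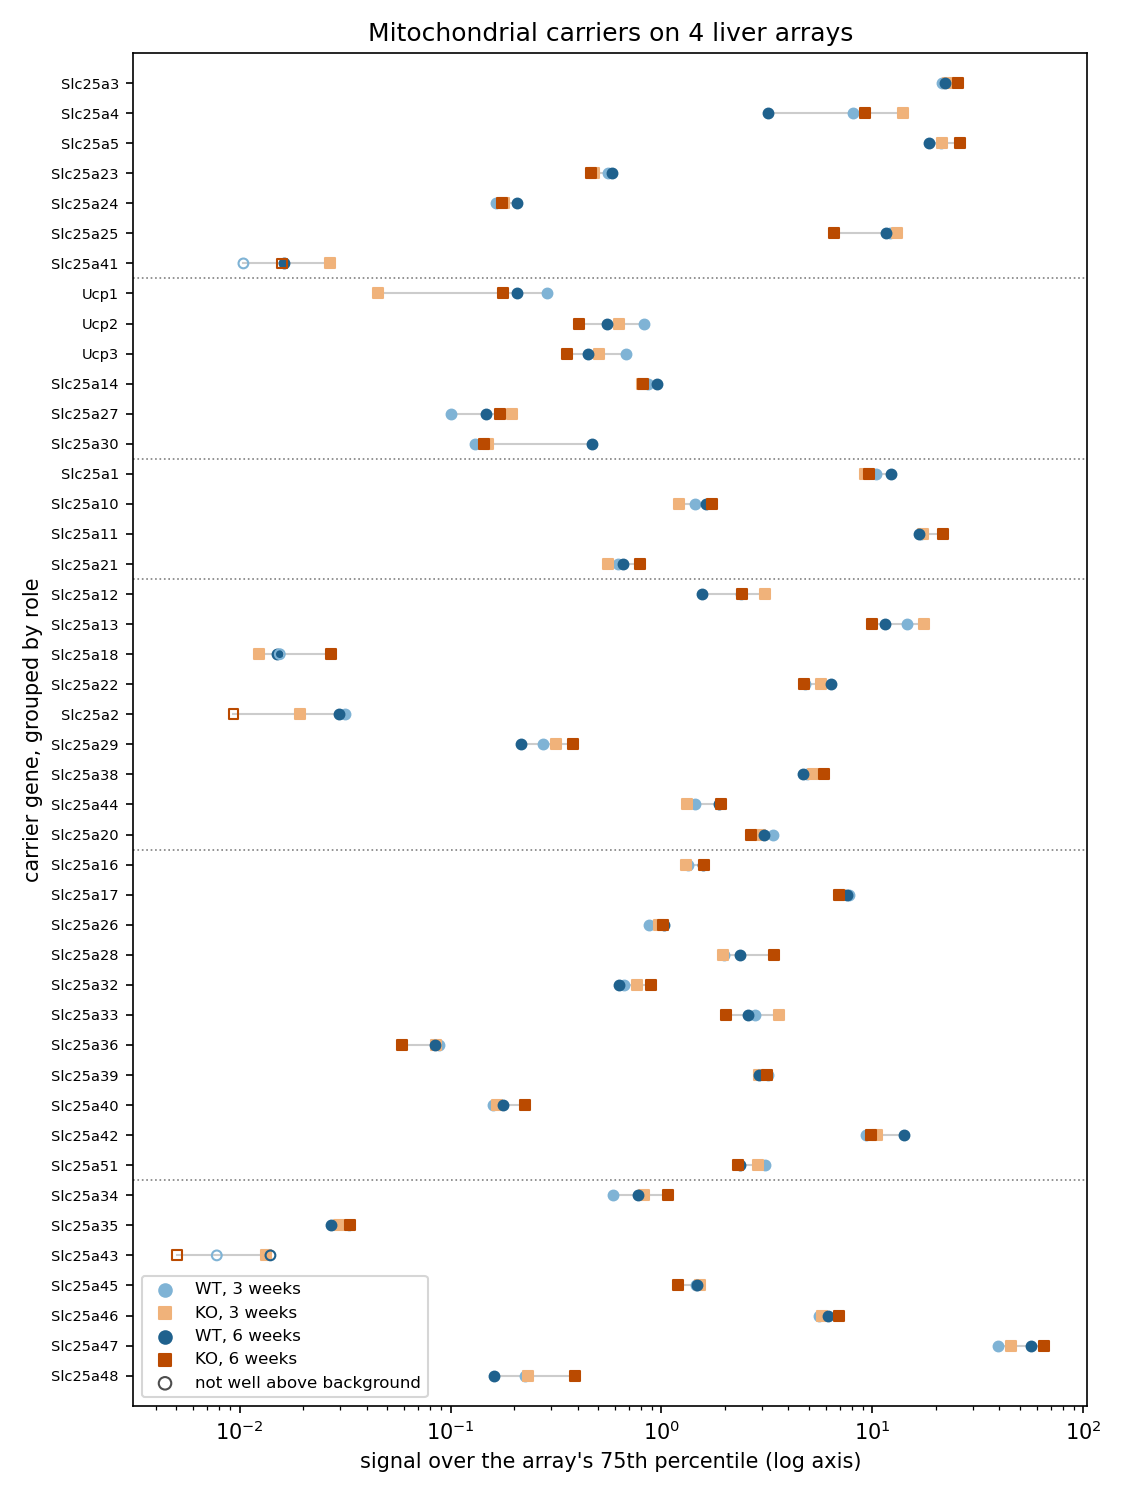
Signal of 44 of the 45 carriers on the 4 arrays, as a multiple of the array's 75th percentile on a log axis, with genes grouped by role and roles parted by dotted lines; circles are WT, squares KO, light colours 3 weeks, dark colours 6 weeks, and open symbols mark arrays where the probe was not well above background. In most rows the 4 symbols lie close together, and the long lines belong to Slc25a4, Ucp1, Slc25a30, Slc25a2 and Slc25a41; levels of different genes come from different probes and are not compared.

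Of the carriers, 2 were past 1.5-fold in the same direction at both ages, Slc25a4 (higher in KO) and Slc25a2 (lower, and dim). The share of all genes past it in the same direction at both ages was not counted. Slc25a4, the adenine nucleotide carrier best known from heart and skeletal muscle, read 8.09 in WT and 13.9 in KO at 3 weeks and 3.21 and 9.23 at 6 weeks. Both KO arrays were above both WT arrays, and within each genotype the 6-week array was below the 3-week array. The ratios were 0.78 at 3 weeks and 1.52 at 6 weeks, while the differences in signal were 5.81 and 6.02. Over both ages limma gave Slc25a4 a log2 difference of 1.15 with an SE of 0.27, an unadjusted p of 0.0345 and a Benjamini-Hochberg adjusted p of 0.914. The probe was printed in 10 spots, whose SD on the log2 scale was 0.0586 to 0.0719 on each array, so the differences exceed the spread between spots. In this pooled RNA, fewer cells of a type and less RNA per cell cannot be told apart.

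Skeletal muscle markers were higher on both KO arrays, as Slc25a4 was. Of the 15 markers listed, 15 were at least 2-fold higher in KO at 3 weeks, with a median log2 ratio of 5.95, and 14 at 6 weeks, with a median of 4.97. Their summed signal was 1.96 in WT and 66.9 in KO at 3 weeks and 2.78 and 41.9 at 6 weeks. Acta1, skeletal muscle actin, read 0.0237 and 10.9 at 3 weeks and 0.326 and 10.3 at 6 weeks, ratios of 8.84 and 4.99. Tnnc2, fast troponin C, had ratios of 8.73 and 5.87, and the fast myosin heavy chains Myh4 and Myh1 had ratios of at least 8.38 and 8.25 at 3 weeks. Myh4 and Ckm, muscle creatine kinase, were not well above background on either WT array. Ckmt2, the creatine kinase of striated muscle mitochondria, had ratios of at least 7.60 at 3 weeks and of 6.58 at 6 weeks. Between ages the markers and Slc25a4 parted in WT, where Slc25a4 had a ratio of -1.33 from 3 to 6 weeks and 6 of the 10 markers that could be compared were at least 2-fold higher at 6 weeks, with a median of 1.02. In KO both were lower at 6 weeks, at -0.59 for Slc25a4 and a median of -0.86 for the markers. From 3 to 6 weeks the KO over WT ratio was larger for Slc25a4 and the marker median smaller. In WT 7 of the 15 markers were well above background at 3 weeks and 10 at 6 weeks. The marker medians of KO over WT and of age in WT therefore include bounds. How far the bounds shape the contrast with Slc25a4 was not tested. The part of muscle RNA in the Slc25a4 difference was not tested.

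**Figure D3:**
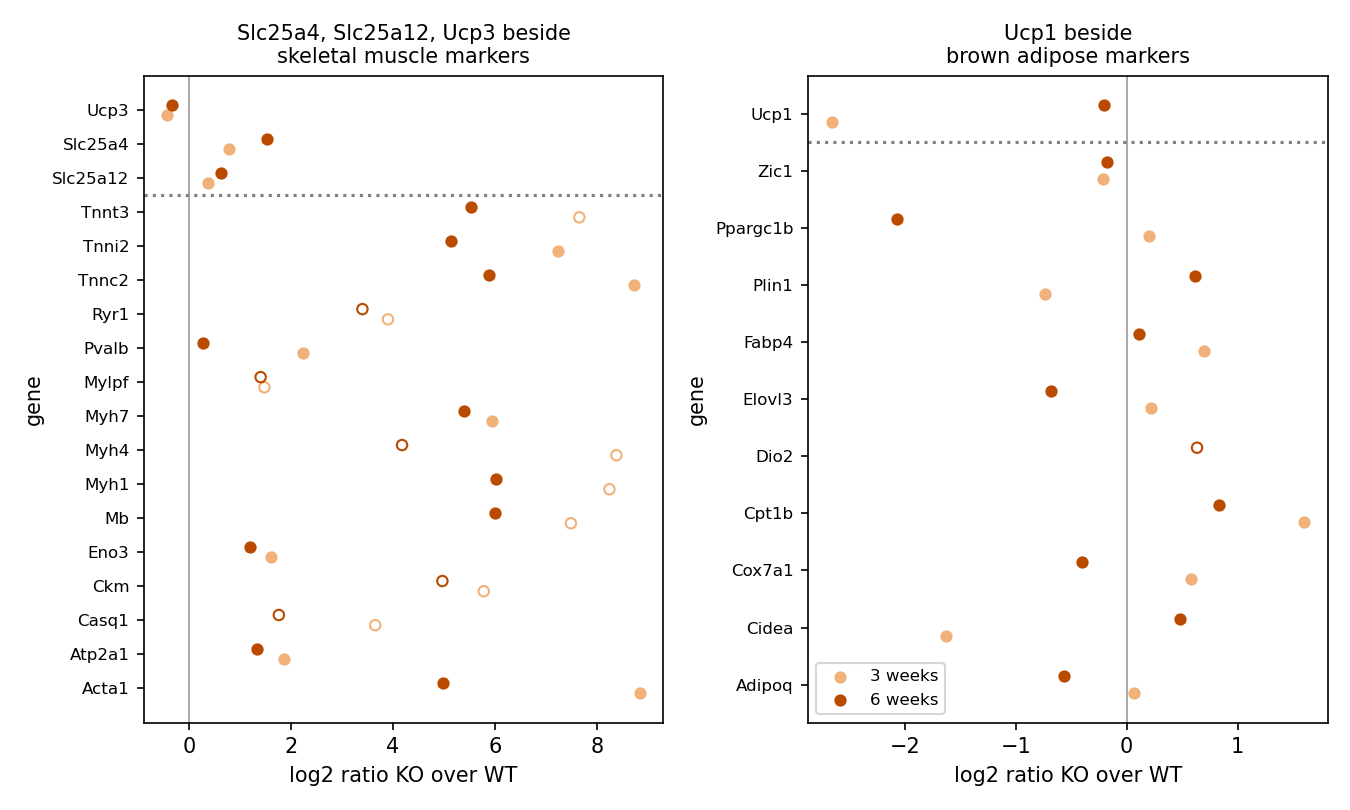
Log2 ratios of KO over WT at 3 weeks (light) and 6 weeks (dark), with Slc25a4, Slc25a12 and Ucp3 above the 15 skeletal muscle markers on the left and Ucp1 above the 10 brown adipose markers on the right; open points are bounds, from a WT or KO array where the probe was not well above background. The muscle markers lie to the right of 0 at both ages with medians of 5.95 and 4.97, Slc25a4 is also to the right (0.78 and 1.52), and Ucp3 is to the left (-0.42 and -0.33).

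The sister carrier Slc25a5, the adenine nucleotide carrier of most other tissues, read 21.2 in WT and 21.4 in KO at 3 weeks and 18.5 and 26.0 at 6 weeks. The 2 arrays at 3 weeks were nearly level, and the KO array was the higher at 6 weeks, with ratios of 0.01 and 0.49. A second probe that the scanner files give to Slc25a5 lies on chromosome 14 rather than X in mm9 and had ratios of 0.17 and 0.34. Slc25a3, the phosphate carrier, read 21.4 and 22.7 at 3 weeks and 22.1 and 25.5 at 6 weeks, ratios of 0.09 and 0.21. It stayed within 1.5-fold in all 4 comparisons.

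The calcium-regulated ATP-Mg/phosphate carriers change the size of the matrix adenine nucleotide pool. Slc25a25 read 12.1 in WT and 13.0 in KO at 3 weeks and 11.6 and 6.57 at 6 weeks. The 6-week KO array stood below the other 3, with a KO over WT ratio of -0.82 at 6 weeks and 0.10 at 3 weeks. A second probe of Slc25a25 read 5.72, 6.23, 5.36 and 2.94 in the same order, with ratios of 0.12 and -0.86. Within KO the first probe had a ratio of -0.99 from 3 to 6 weeks and the second -1.08, on either side of 2-fold. Slc25a23 and Slc25a24 stayed within 1.5-fold in all 4 comparisons, with KO over WT ratios between -0.33 and 0.12. Slc25a41 was well above background only in KO at 3 weeks (0.0268) and WT at 6 weeks (0.0162), so its ratio was at least 0.83 at 3 weeks and at most -0.03 at 6 weeks.

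Slc25a25 was low on the array that was also low in markers of macrophages and Kupffer cells. The summed signal of the 10 macrophage markers was 91.6 in WT and 84.1 in KO at 3 weeks and 80.7 and 45.4 at 6 weeks. At 6 weeks 2 of 10, Adgre1 (-1.54) and Clec4f (-1.06), were at least 2-fold lower in KO, the median was -0.82, and all 10 were well above background on that array. The part of these cells in the Slc25a25 value was not tested.

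Among the uncoupling proteins, Ucp1, the protein that lets brown fat produce heat, read 0.287 in WT and 0.0454 in KO at 3 weeks and 0.206 and 0.178 at 6 weeks. The KO array at 3 weeks was the low one, and the other 3 lay within 0.178 to 0.287. The KO over WT ratio was -2.66 at 3 weeks and -0.21 at 6 weeks, and within KO the ratio of 6 over 3 weeks was 1.97. With normexp background correction and quantile normalization the 3-week ratio was -1.75. Over both ages limma gave Ucp1 a log2 difference of -1.43 with an SE of 0.79 and a Benjamini-Hochberg adjusted p of 0.914.

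Of the 10 brown adipose markers, 9 could be compared at 3 weeks, 1 at least 2-fold lower in KO and 1 higher, with a median of 0.20. Cidea, a lipid droplet protein of brown fat, was the lower one and read 0.351 in WT and 0.114 in KO at 3 weeks and 0.0289 and 0.0403 at 6 weeks, ratios of -1.63 and 0.48. Cpt1b, the carnitine palmitoyltransferase of muscle and brown fat, was the higher one, at 1.60. The summed signal of the list was 8.55 in WT and 12.9 in KO at 3 weeks and 5.82 and 5.21 at 6 weeks, and Dio2 was not well above background on 3 of the 4 arrays. Ppargc1b, also in the list, had a ratio of -2.07 at 6 weeks, from 0.0792 in WT and 0.0188 in KO. The KO value lies near the lowest signal well above background on that array, 0.0135. The part of fat cells in the Ucp1 difference was not tested.

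Ucp2, the uncoupling protein found in many tissues, read 0.829 in WT and 0.626 in KO at 3 weeks and 0.549 and 0.406 at 6 weeks. Ucp3, best known from skeletal muscle, read 0.681 and 0.508 at 3 weeks and 0.449 and 0.358 at 6 weeks. For both genes KO was below WT at each age and 6 weeks below 3 weeks in each genotype. The KO over WT ratios were -0.40 and -0.43 for Ucp2 and -0.42 and -0.33 for Ucp3, none past 1.5-fold. For age over both genotypes limma gave Ucp2 a log2 difference of -0.61 with an SE of 0.14, an unadjusted p of 0.0336 and a Benjamini-Hochberg adjusted p of 0.477. A second probe of Ucp3 was not well above background on any array. Ucp3 thus lay on the other side of 0 from the muscle markers listed above, while Slc25a4 lay on the same side.

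The relatives of the uncoupling proteins are less well understood. Slc25a30, a carrier first described in kidney, read 0.130 in WT and 0.151 in KO at 3 weeks and 0.468 and 0.144 at 6 weeks. The WT array at 6 weeks was the high one and the other 3 were close together. The ratios were therefore -1.71 for KO over WT at 6 weeks and 1.85 for 6 over 3 weeks in WT, with 0.21 for KO over WT at 3 weeks. Slc25a27, known from brain, read 0.101 in WT and 0.195 in KO at 3 weeks and 0.147 and 0.172 at 6 weeks. The WT array at 3 weeks was the lowest, with ratios of 0.95 and 0.23. Slc25a14 stayed between 0.810 and 0.949 on all 4 arrays.

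**Figure D4:**
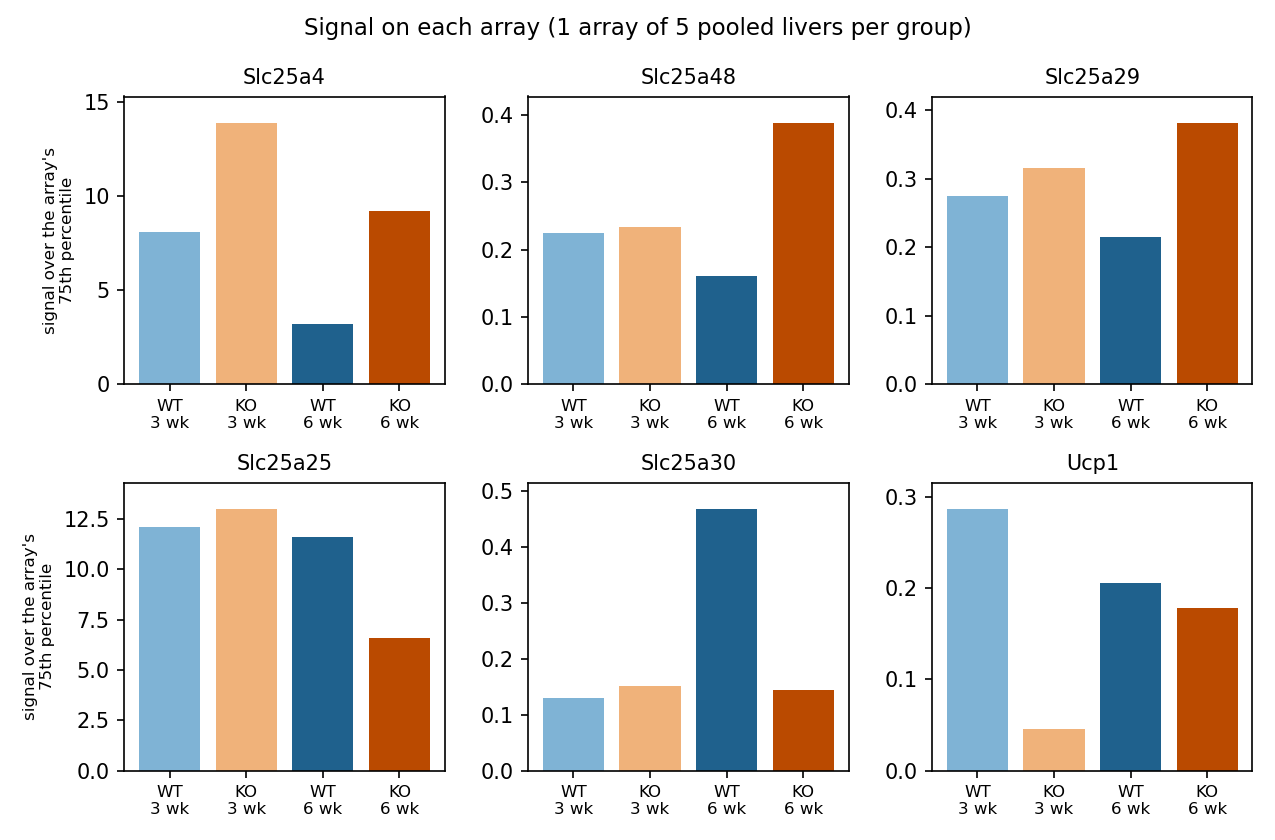
Bars give the signal of 6 carriers on each array, as a multiple of the array's 75th percentile and from 0, with 1 array of 5 pooled livers per group and no error bar because there is no replicate. Slc25a4 is higher on both KO arrays (13.9 and 9.23 against 8.09 and 3.21), Slc25a25, Slc25a30 and Ucp1 each have a single array that stands apart from the other 3, and Slc25a48 has its highest and its lowest array at 6 weeks (0.388 in KO and 0.160 in WT).

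Carriers of citrate and other carboxylates feed lipogenesis and the malate-aspartate shuttle, and none of the 4 passed 1.5-fold in any comparison. Of all genes, 5.05% to 13.3% were past that threshold in each direction of a comparison, so few of 4 would be in a single comparison. Slc25a1, the citrate carrier, read 10.4 in WT and 9.20 in KO at 3 weeks and 12.3 and 9.68 at 6 weeks. KO was below WT at both ages, with ratios of -0.18 and -0.34. Of 8 enzymes that make or use exported citrate, 2 were at least 2-fold lower in KO at 6 weeks, Me1 (-1.21), malic enzyme, and Acly (-1.08), ATP citrate lyase, and the list medians were -0.39 and -0.56. Slc25a11, the oxoglutarate/malate carrier, read 17.0 and 17.4 at 3 weeks and 16.6 and 21.5 at 6 weeks. Its KO array at 6 weeks was the highest, at a ratio of 0.37. Slc25a10, the dicarboxylate carrier, read 1.44 and 1.21 at 3 weeks and 1.63 and 1.73 at 6 weeks, ratios of -0.25 and 0.09. Slc25a21, the oxoadipate carrier, had ratios of -0.15 and 0.28.

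The aspartate/glutamate carriers complete the malate-aspartate shuttle. Slc25a13, the liver form known as citrin, read 14.5 in WT and 17.6 in KO at 3 weeks and 11.5 and 9.95 at 6 weeks. Its ratios were 0.28 and -0.20 for KO over WT, and -0.82 from 3 to 6 weeks in KO against -0.34 in WT, a difference that was not tested. Slc25a12, the form best known from heart, muscle and brain, read 2.38 and 3.09 at 3 weeks and 1.56 and 2.40 at 6 weeks. KO was above WT at each age, with ratios of 0.38 and 0.62. Its part of the muscle signal described above was not tested. Of 6 enzymes of the malate-aspartate and glycerol phosphate shuttles, Got1, the cytosolic aspartate aminotransferase, was at least 2-fold higher in KO at 6 weeks (1.22), with 28.3 in WT and 65.7 in KO, and none was at 3 weeks.

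The glutamate carrier Slc25a22 read 4.81 in WT and 5.70 in KO at 3 weeks and 6.35 and 4.75 at 6 weeks. WT was the lower at 3 weeks and the higher at 6, with ratios of 0.24 and -0.42, both within 1.5-fold. The other glutamate carrier, Slc25a18, was dim, at 0.0123 in KO at 3 weeks, 0.0150 in WT at 6 weeks and 0.0272 in KO at 6 weeks, and not well above background in WT at 3 weeks. Its ratio at 6 weeks was 0.86, and 1.14 for 6 over 3 weeks in KO, and these fell to 0.19 and 0.24 with normexp background correction and quantile normalization.

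Carriers of basic amino acids serve the urea cycle and arginine metabolism. Slc25a29 read 0.275 in WT and 0.316 in KO at 3 weeks and 0.215 and 0.382 at 6 weeks. KO was above WT at each age, with ratios of 0.20 and 0.83. Slc25a2, an ornithine carrier, read 0.0317 and 0.0194 at 3 weeks and 0.0296 in WT at 6 weeks, and was not well above background in KO at 6 weeks. KO was the lower at each age, with ratios of -0.71 and of at most -1.13. With normexp background correction and quantile normalization the ratios of Slc25a2 were -0.17 and -0.43, so neither was past 1.5-fold under that setting.

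Slc25a38, the glycine carrier needed for heme synthesis, read 4.90 in WT and 5.25 in KO at 3 weeks and 4.70 and 5.92 at 6 weeks, ratios of 0.10 and 0.33. Slc25a44, a carrier of branched-chain amino acids, read 1.45 and 1.33 at 3 weeks and 1.88 and 1.91 at 6 weeks, ratios of -0.12 and 0.02. Both stayed within 1.5-fold in all 4 comparisons, while the erythroid markers, measured because heme is made at high rate in red cell precursors, had summed signals of 102 and 89.9 at 3 weeks and 9.66 and 8.89 at 6 weeks. Slc25a20, the carnitine/acylcarnitine carrier of fatty acid oxidation, read 3.38 and 2.93 at 3 weeks and 3.06 and 2.66 at 6 weeks. KO was slightly below WT at each age, at -0.21 and -0.20. Of 7 other genes of the carnitine shuttle none differed 2-fold between KO and WT at either age, and 3 were at least 1.5-fold lower at 6 weeks.

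By the probe used, none of the 12 carriers of cofactors, nucleotides, glutathione and metals passed 1.5-fold between KO and WT at either age. Of all genes, 5.05% were higher and 5.48% lower past that threshold at 3 weeks and 12.0% and 10.4% at 6 weeks, so few of 12 would be past it at those shares. Slc25a26 imports S-adenosylmethionine, the methyl donor made by the methionine cycle, and read 0.876 in WT and 0.971 in KO at 3 weeks and 1.03 and 1.02 at 6 weeks. The ratios were 0.15 and -0.02, and a second probe gave 0.16 and -0.44, so the probes were alike at 3 weeks and apart at 6. Slc25a32, which carries folate or flavin cofactors, read between 0.628 and 0.892 on the 4 arrays, with ratios of 0.20 and 0.51.

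Slc25a42, which carries coenzyme A, read 9.36 in WT and 10.5 in KO at 3 weeks and 14.2 and 9.89 at 6 weeks. The WT array at 6 weeks was the high one, with a ratio of -0.52 for KO over WT at that age. Slc25a16, linked to coenzyme A as well, read 1.34 and 1.31 at 3 weeks and 1.57 and 1.59 at 6 weeks. Slc25a17, a cofactor carrier of peroxisomes, read 7.77 and 7.02 at 3 weeks and 7.58 and 6.91 at 6 weeks. Neither passed 1.5-fold in any comparison. Slc25a51, the NAD carrier, read 3.08 and 2.86 at 3 weeks and 2.36 and 2.30 at 6 weeks, with the 6-week arrays lower. Its 2 probes gave 6-week ratios of -0.04 and 0.42, the widest gap at that age among the 8 carriers with 2 probes well above background on all arrays. The signs of 2 probes matched for 8 of 8 such carriers at 3 weeks and for 6 of 8 at 6 weeks. Between ages they matched for 6 of 8 in WT and 5 of 8 in KO. The 8 include Slc25a5, whose second probe lies on chromosome 14, so that pair may not compare the same gene.

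Slc25a28, the mitochondrial iron carrier mitoferrin 2, read 1.98 in WT and 1.96 in KO at 3 weeks and 2.37 and 3.43 at 6 weeks. The KO array at 6 weeks was the highest, with ratios of -0.02 and 0.53. Slc25a33, a pyrimidine nucleotide carrier, read 2.77 and 3.62 at 3 weeks and 2.58 and 2.02 at 6 weeks. KO was the higher at 3 weeks and the lower at 6, with ratios of 0.39 and -0.35 from the first probe and 0.49 and -0.37 from the second. The related Slc25a36 had ratios of -0.05 and -0.52. Slc25a39, a glutathione carrier, read 3.20 and 2.90 at 3 weeks and 2.90 and 3.16 at 6 weeks. These 4 arrays were nearly level, and the relative Slc25a40 had ratios of 0.07 and 0.35.

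Slc25a48, a carrier that brings choline into the matrix, read 0.225 in WT and 0.234 in KO at 3 weeks and 0.160 and 0.388 at 6 weeks. The KO array at 6 weeks was the highest and the WT array at 6 weeks the lowest, and the 2 arrays at 3 weeks were nearly level. The KO over WT ratios were 0.06 and 1.28, and with normexp background correction and quantile normalization the 6-week ratio was 0.99, just under 2-fold. Over both ages limma gave Slc25a48 a log2 difference of 0.67 with an SE of 0.41 and a Benjamini-Hochberg adjusted p of 0.914. Of the 4 genes that oxidise choline and its products in mitochondria, none differed 2-fold at either age. Their median ratios were -0.09 and 0.29, with 1 gene at least 1.5-fold higher at 6 weeks.

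Slc25a47, a carrier largely restricted to liver, read 39.4 in WT and 45.5 in KO at 3 weeks and 56.4 and 65.1 at 6 weeks. The 6-week arrays were the higher pair, with an age ratio of 0.52 in each genotype. The KO over WT ratio was 0.21 at both ages with 75th percentile scaling, but -0.02 at 6 weeks with quantile normalization and -0.04 with normexp and quantile normalization, so the 6-week direction depends on the scaling. Slc25a46, an outer membrane protein of the family, read 5.57 and 5.79 at 3 weeks and 6.16 and 6.92 at 6 weeks. Slc25a45 read 1.46 and 1.53 at 3 weeks and 1.47 and 1.20 at 6 weeks. By the probes used, both stayed under 1.5-fold throughout. A second, dimmer probe of Slc25a46 had KO over WT ratios of 0.03 and 0.52. Within KO its ratio of 6 over 3 weeks was 0.75, past 1.5-fold. Slc25a34 read 0.589 and 0.825 at 3 weeks and 0.771 and 1.07 at 6 weeks, with KO above WT at each age and ratios of 0.49 and 0.47. Slc25a35 had ratios of -0.15 and 0.29, and Slc25a43 was well above background only in KO at 3 weeks, at 0.0134.

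Other genes that carriers depend on were counted in the same way. Of 16 genes that import carriers into the inner membrane, such as those of the TIM22 route, none differed 2-fold between KO and WT at either age, with median ratios of 0.04 and 0.09. Of 20 mitochondrial transporters outside the set described here, none differed 2-fold at 3 weeks and 1 at 6 weeks. That was Mcu, the pore of the calcium uniporter, which read 0.0644 in WT and 0.0475 in KO at 3 weeks and 0.0779 and 0.297 at 6 weeks, ratios of -0.44 and 1.93. Of 10 regulators of mitochondrial gene expression none was 2-fold different at 3 weeks. At 6 weeks Esrrg (1.32), an estrogen-related receptor, and Ppargc1a (1.25), a coactivator of mitochondrial genes, were at least 2-fold higher in KO. Ppargc1b (-2.07) was at least 2-fold lower, and its KO value of 0.0188 lies near that array's lowest signal well above background. Ppargc1a read 2.02 and 3.99 at 3 weeks and 1.86 and 4.42 at 6 weeks, so both KO arrays lay above both WT arrays.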

How the data were processed

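Liver RNA of 4 groups was hybridised to 4 one-colour Agilent arrays, 1 per group. The deposited scanner files give intensity per spot, background-subtracted and detrended by the authors per the file headers. The software was Agilent Feature Extraction, version 11.5.1.1 in the submitters' processing notes. The scanner files also give flags per spot, among them the deposited well-above-background flag, and probe positions on mm9. The authors' deposited value table holds the ratio of each signal to its array's 75th percentile: the quotient of both was 1 to 3 decimals for every spot, and its columns had medians of 0.0878 (WT) and 0.0896 (KO) at 3 weeks and of 0.0853 and 0.0864 at 6 weeks.

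Processed intensity was divided by the 75th percentile of its array's non-control spots, outlier spots (189 to 252 per array) were left out, spots of a probe were averaged on the log2 scale, and the probe brightest on average stood for its gene. The majority of a probe's spots decided whether it was well above background. Of 39429 probes, 27448 were named by accession, 3542 by symbol, 404 by synonym and 62 by the family rule, and 7973 kept the file's name. Ratios needed a gene well above background on 1 array or both. With 1 of them dim, the gene's own signal there was raised to a floor, the lowest signal that any probe well above background had on that array (0.0101 to 0.0151), and the ratio is given as a bound. No ratio of a single gene is given where such a bound falls short of 1-fold. Such a gene is not counted as higher or lower but stays in the medians and in the number compared. The limma fit took signals as read, without the floor.

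The tools were R 4.3.3 with limma 3.58.1 (lmFit and eBayes, age and genotype as terms, Benjamini-Hochberg adjustment over all genes) and Python 3.11.15. The limma step was run on simulated data with the same spread for all genes. The only check was that mean estimates lay near the planted changes, which does not test its p-values on these data. Each result was recomputed with median scaling, with quantile normalization, with normexp (offset 50) followed by quantile normalization, with the authors' value table, with outlier spots kept, with the mean of a gene's probes, with no filter or one on all 4 arrays, and at 1.5-fold or 3-fold; for limma also with a fit without the other factor and a trended prior.

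Values on every array are given for members past 1.5-fold between KO and WT or 2-fold between ages, or with a mean signal of at least 1, except 1 member that counts include and that is not reported here. From other lists, up to 4 genes past 2-fold between KO and WT are named. Members and lists were chosen with earlier results of these data known. The number of arrays limits the precision.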

Additional observations from a re-analysis of the deposited data

How the results depend on the processing

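No paired analysis was possible because each group had 1 array and so no replicate numbers to pair, beyond the age term in limma, which compares KO with WT within each age; no replicate could be left out. At 2-fold the carriers higher and lower in KO were 0 and 1 at 3 weeks and 2 and 2 at 6 weeks, and those higher and lower at 6 than at 3 weeks were 1 and 1 in WT and 2 and 0 in KO. With normexp and quantile normalization they were 1 and 1 at 6 weeks, where Slc25a4 was the one higher and Slc25a30 the one lower, and 1 and 1 in KO between ages. Quantile normalization alone gave 1 lower in KO between ages. A filter on all 4 arrays gave 1 lower at 6 weeks and 1 higher in KO between ages. Without a filter, which also lets in the 3 genes not well above background on any array, there were 1 higher and 2 lower at 3 weeks, 3 and 3 at 6 weeks, 2 lower in WT between ages and 2 lower in KO between ages. The mean of probes gave 3 lower at 6 weeks, with Slc25a40 added through a second probe that was well above background on 1 array only, 2 higher in WT and 1 lower in KO between ages. At 1.5-fold the counts higher and lower were 3 and 2 at 3 weeks, 5 and 3 at 6 weeks, 2 and 5 in WT and 4 and 6 in KO between ages. At 3-fold they were 0 and 1 at 6 weeks, with 0 lower in WT and 1 higher in KO between ages. A 3-fold or 1.5-fold threshold and the filters change which values count by construction, and for the other settings the cause was not tested. Of 1012 values of single carriers under the alternatives, 55 moved by more than the spot spread, 32 of them with normexp and quantile normalization, and none that was past 2-fold changed sign. Limma called no carrier under any alternative run, and its trended prior called 4 genes for genotype, with a lowest adjusted p among carriers of 0.703 (Slc25a4). Under median scaling the median of all genes from 3 to 6 weeks in KO was 0.11. Signal over background limits Slc25a2, Slc25a18, Slc25a41 and Slc25a43, whose ratios are bounds or lie near the background.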
